A study of Homo sapiens with 12 samples.

Results

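The solute carrier transporters described here are the human genes whose current symbol begins with SLC and a number. Of 11963 genes measured on the arrays, 238 were such genes. A gene was kept when the mean of its brightest probe set over all 12 arrays reached percentile 33.3 of all genes, a log2 value of 6.20, called the level limit below. This left 143 genes of 47 families, and 95 were below the limit. The genes just inside it were SLC6A2, SLC27A2 and SLC16A7, with means of 6.22, 6.25 and 6.28. Those just outside were SLC12A3, SLC25A30 and SLC2A5, with means of 6.20, 6.20 and 6.13. The members were chosen by their level over all 12 arrays, so the levels themselves are a description.

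Solute carriers are membrane proteins that move nutrients, ions, metals, vitamins and metabolites across the cell surface and across the membranes of mitochondria, lysosomes, the endoplasmic reticulum and the Golgi apparatus. Some let a substrate run down its own gradient, and others couple it to sodium, protons or a counter-substrate. In tumour cells they are best known for glucose uptake, for the exchange of amino acids such as cystine and glutamate, and for the entry and exit of drugs.

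By the labels, RNA came from the human breast cancer line MDA-MB-231, an established cell line, carrying 1 of 4 stable transfections with 3 biological replicates each. The groups were LSD2 shRNA, scramble shRNA, LSD2/eGFP/Flag vector and eGFP/Flag vector. LSD2, the histone demethylase encoded by KDM1B, was the target of the shRNA and the insert of the vector, and untransfected cells were killed with G418 at 800 ug/ml. The labels do not say whether a line was 1 clone or a pool, so all p-values measure the spread between replicates that may share a line. The 2 comparisons, LSD2 shRNA against scramble shRNA and the LSD2/eGFP/Flag vector against the eGFP/Flag vector, share no arrays. Differences are log2 values of the first-named group minus the second. In bulk RNA, fewer cells of a type and less RNA per cell cannot be told apart.

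The shRNA arrays had log2 medians of 6.65 to 6.72 and the vector arrays of 7.03 to 7.18, so levels were compared only within the shRNA arrays or within the vector arrays. No probe set used here named KDM1B, and the targeted gene was not checked. The 7 markers listed for the line (VIM, CD44, CAV1, EGFR, ANXA1, AXL and MSN) lay above percentile 80 in LSD2 shRNA, scramble shRNA and eGFP/Flag vector arrays. On the arrays labelled LSD2/eGFP/Flag vector only 1 of 7 did and 3 were below percentile 33.3, with CD44 at 3.99 against 12.41 in eGFP/Flag vector arrays. Correlations between arrays within a group were 0.996 to 0.998. They were 0.904 to 0.908 between LSD2/eGFP/Flag and eGFP/Flag vector arrays and 0.991 to 0.994 between LSD2 shRNA and scramble shRNA arrays. The eGFP/Flag vector arrays had 0.9513 to 0.9565 with LSD2 shRNA arrays and 0.9434 to 0.9503 with scramble shRNA arrays. The LSD2/eGFP/Flag vector arrays had 0.8652 to 0.8704 with LSD2 shRNA arrays and 0.8664 to 0.8704 with scramble shRNA arrays.

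With the LSD2 shRNA, 20 of the 143 solute carrier genes changed, 10 higher and 10 lower than with the scramble shRNA. The genes that fell included the drug exporter SLC47A1, the creatine importer SLC6A8 and the mitochondrial exchanger SLC25A11, and those that rose included SLC4A7, SLC1A3 and SLC19A2. A gene was called changed at a Benjamini-Hochberg adjusted p under 0.05 over all genes in limma's moderated fit. Of all genes 10.5% were called, and of genes at or above the level limit 14.8% (6.97% higher, 7.80% lower), so 20 of 143 is close to the share among genes of such levels. The arrays of both groups did not overlap for 45 members, against 37.2% of genes at or above the level limit. The median difference of the members was 0.0005 log2 units, against -0.0052 for all genes. The number that fell was 6 when scramble replicate 1 was left out, and also 6 on leaving out replicate 3 of the LSD2 shRNA.

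The largest fall with the LSD2 shRNA was in SLC47A1, the proton-coupled exporter of organic cations and drugs. Its log2 values were 7.11, 7.07 and 7.27 in LSD2 shRNA arrays, against 8.29, 8.20 and 8.49 in scramble shRNA arrays. The groups did not overlap. The difference was -1.17 ± 0.16 (SE, limma adjusted p = 0.000432), a 2.26-fold lower level and the only called member past 1 log2 unit. SLC67A1, named SLC22A18 in earlier nomenclature, is a carrier-like protein encoded in an imprinted gene cluster. Its values were 6.42, 6.69 and 6.20 in LSD2 shRNA arrays and 7.43, 7.90 and 6.86 in scramble shRNA arrays, and scramble replicate 3 stood close to the LSD2 shRNA arrays. The difference was -0.96 ± 0.26 (limma adjusted p = 0.0306). It lost its call on leaving out scramble array 1 or 2, or array 1 or 3 of the LSD2 shRNA, at adjusted p from 0.0959 to 0.128. SLC22A4, a carrier of ergothioneine and organic cations, fell by 0.65 ± 0.16. It lost its call on leaving out scramble array 1 or 3, or array 1 or 2 of the LSD2 shRNA, at adjusted p from 0.0596 to 0.0776.

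SLC6A8 takes up creatine with sodium and chloride. It had 6.19, 6.28 and 6.21 in LSD2 shRNA arrays, against 6.90, 6.91 and 6.74 in scramble shRNA arrays. All LSD2 shRNA arrays lay below all scramble shRNA arrays, with a difference of -0.62 ± 0.11 (limma adjusted p = 0.0032). SLC2A6 is a glucose transporter-family protein of lysosomal membranes. Its values were 7.32, 7.52 and 7.08 in LSD2 shRNA arrays, against 7.87, 7.98 and 7.77 in scramble shRNA arrays. The difference of -0.57 ± 0.15 had an adjusted p of 0.0249 in limma. The call was lost on leaving out scramble array 1 or 2, or array 1 or 3 of the LSD2 shRNA, at adjusted p from 0.0758 to 0.104.

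SLC25A11 exchanges oxoglutarate for malate across the inner mitochondrial membrane. It had 9.19, 9.26 and 9.16 in LSD2 shRNA arrays and 9.72, 9.73 and 9.83 in scramble shRNA arrays. The replicates were tight in both groups, and the difference was -0.56 ± 0.07 (limma adjusted p = 0.000312). SLC46A3, a lysosomal carrier known for the release of drug conjugates, fell by 0.54 ± 0.11. SLC26A2, a sulfate transporter known for its role in cartilage, fell by 0.53 ± 0.10. SLC37A1, a glucose-6-phosphate and phosphate exchanger, had a difference of -0.38 ± 0.10, which lost its call on leaving out scramble array 2, or array 1 or 3 of the LSD2 shRNA (adjusted p 0.104, 0.121 and 0.0612). SLC2A4RG, not a carrier but a regulator of the SLC2A4 gene, had a difference of -0.43 ± 0.11. It lost its call on leaving out scramble array 1 or 2, or array 2 or 3 of the LSD2 shRNA, at adjusted p from 0.0592 to 0.115.

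**Figure D1:**
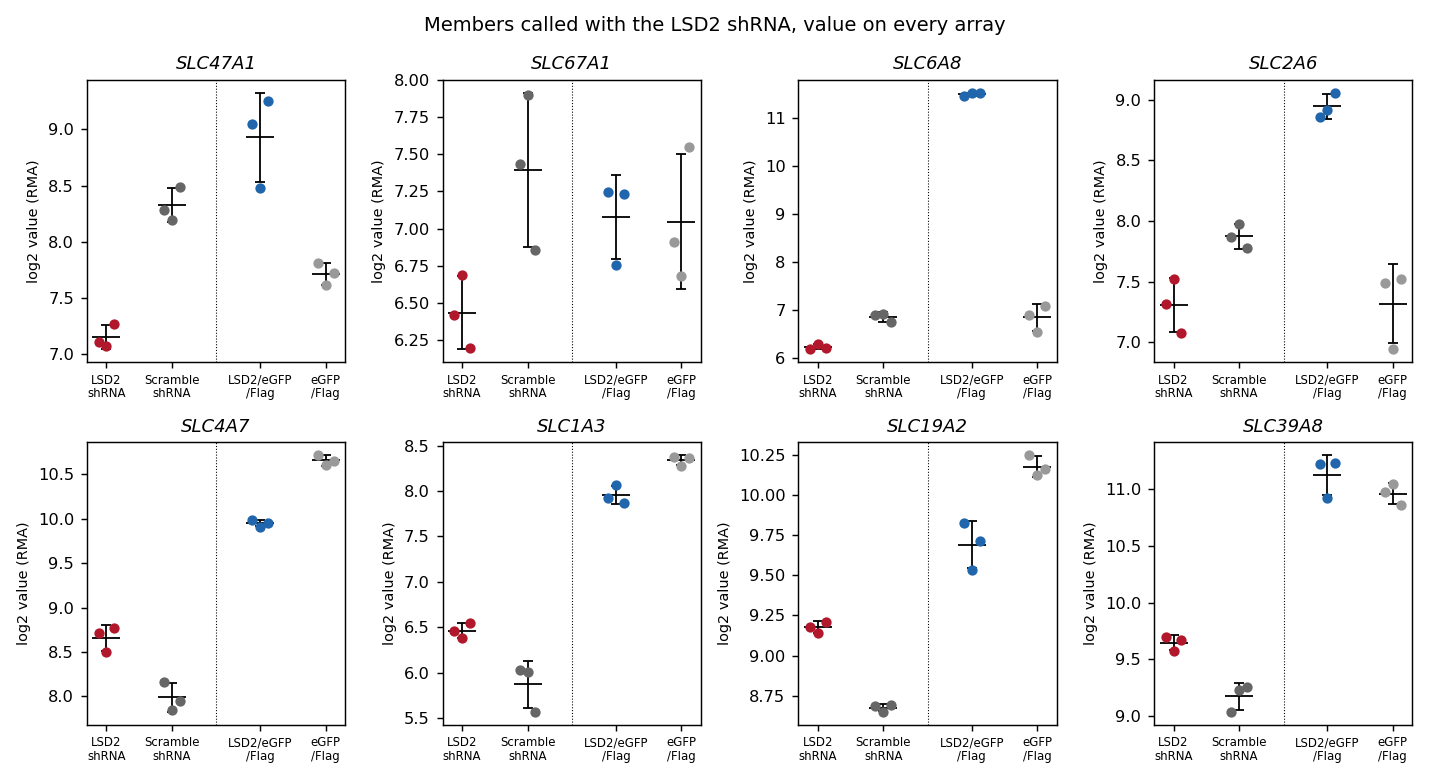
Log2 values (RMA) of 8 members on each of the 12 arrays, with LSD2 shRNA, scramble shRNA, LSD2/eGFP/Flag and eGFP/Flag arrays from left to right. Points are arrays, bars show the mean ± SD (n = 3), and the dotted line separates the shRNA arrays from the vector arrays, between which levels were not compared. SLC47A1 had 7.07 to 7.27 in LSD2 shRNA arrays and 8.20 to 8.49 in scramble shRNA arrays.

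Among the members that rose with the LSD2 shRNA, SLC4A7 changed most. It encodes a sodium and bicarbonate cotransporter that removes acid from cells. Its values were 8.71, 8.50 and 8.78 in LSD2 shRNA arrays, against 8.17, 7.85 and 7.95 in scramble shRNA arrays. The groups did not overlap, and the difference was 0.67 ± 0.09 (limma adjusted p = 0.000524). Of its 3 other probe sets, 2 also were higher, by 0.32 and 0.69, and the dimmest was -0.01. SLC1A3, a glutamate and aspartate transporter, had 6.46, 6.38 and 6.55 in LSD2 shRNA arrays and 6.03, 6.01 and 5.57 in scramble shRNA arrays, a rise of 0.59 ± 0.11 (limma adjusted p = 0.00449). Scramble replicate 3 was the lowest array.

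SLC19A2, a thiamine transporter, had 9.18, 9.14 and 9.21 in LSD2 shRNA arrays, against 8.68, 8.65 and 8.69 in scramble shRNA arrays. The arrays of each group lay close together, with a rise of 0.50 ± 0.08 (limma adjusted p = 0.00121). SLC39A8, an importer of zinc and manganese, had 9.69, 9.57 and 9.67 in LSD2 shRNA arrays and 9.04, 9.23 and 9.26 in scramble shRNA arrays. It rose by 0.47 ± 0.10 on its brightest probe set. The mean of its 4 probe sets gave 0.24 with an adjusted p of 0.143. SLC23A2, which takes up vitamin C, rose by 0.39 ± 0.07 on its brightest probe set, and the mean of its 3 probe sets gave 0.17 with an adjusted p of 0.174.

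SLC38A2, a sodium-coupled carrier of small neutral amino acids, rose by 0.40 ± 0.08. SLC25A38, a mitochondrial glycine carrier needed for heme synthesis, rose by 0.39 ± 0.08. Calls for 3 other rises depended on single arrays. SLC17A5, the lysosomal exporter of sialic acid, had 0.55 ± 0.14. It lost its call on leaving out scramble array 1 or 3, or array 1 or 2 of the LSD2 shRNA, at adjusted p from 0.0914 to 0.107. SLC20A1, a sodium-coupled phosphate importer, had 0.36 ± 0.08, with adjusted p of 0.0521 when scramble array 3 was left out and 0.0538 on leaving out array 1 of the LSD2 shRNA. SLC25A21, a mitochondrial carrier of oxodicarboxylates, had 0.37 ± 0.09, with adjusted p of 0.0873 when scramble array 1 was left out and 0.0847 on leaving out array 1 of the LSD2 shRNA.

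By substrate, the shRNA calls were spread thinly. The class counts stand beside the 14.8% of genes at or above the level limit called in this comparison. Amino acid and related carriers had 2 rises and 1 fall among 28 genes. Mitochondrial carriers also had 2 rises and 1 fall, among 25. The carriers of vitamins, nucleosides and choline had 2 rises and 1 fall among 11. Sugar carriers had 0 rises and 2 falls among 12, metal carriers 1 rise among 16, and carriers of organic ions and vesicle contents 1 rise and 2 falls among 8. Of the 15 genes in the class of nucleotide sugar and acetyl-CoA carriers, 0 were called, and their differences ran from -0.25 to 0.17. The 6 carriers of carboxylates and lipids also had 0 calls.

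Of 14 members named whatever their values, SLC38A2 and SLC20A1 were called with the LSD2 shRNA, as above, and the others were not. SLC2A1, the common glucose importer, had 9.40, 9.35 and 9.26 in LSD2 shRNA arrays, against 9.44, 9.52 and 9.34 in scramble shRNA arrays. The groups overlapped, with a difference of -0.10 ± 0.07 (limma adjusted p = 0.49). SLC7A11, the cystine and glutamate exchanger, had 10.07, 9.70 and 10.76 in LSD2 shRNA arrays and 10.15, 9.27 and 10.60 in scramble shRNA arrays, where replicates of a group differed more than the group means. SLC2A3, SLC3A2, SLC7A5 and SLC1A5 had differences of -0.06 ± 0.15, -0.15 ± 0.17, -0.06 ± 0.15 and -0.16 ± 0.13. The other uncalled ones, SLC12A2, SLC19A1, SLC25A5, SLC29A1, SLC30A1 and SLC39A6, had differences from -0.08 to 0.16. A missed threshold does not show that these levels were equal.

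Below the level limit, SLC2A10, a glucose transporter-family gene, had a difference of -1.54 ± 0.31 with the LSD2 shRNA (limma adjusted p = 0.00641). It is not among the 143 genes.

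Calls of genes at or above the level limit leaned to 1 direction on many chromosomes in the shRNA comparison. Of the 20 called members, 14 went with the majority of the other calls on their chromosome. By definition most called genes lie on the majority side of their chromosome. Their share was not counted, so the 14 of 20 is no result about the members. On chromosome 17, where SLC47A1 and SLC25A11 fell, 9 other genes rose and 106 fell. On chromosome 3, where SLC4A7 and SLC25A38 rose, 89 others rose and 6 fell. Against the majority went 5 members, among them SLC6A8, which fell on chromosome X, where 25 others rose and 4 fell, and SLC20A1, which rose on chromosome 2, where 22 others rose and 84 fell. The other 3 were SLC1A3, SLC23A2 and SLC46A3, and SLC19A2 lay on chromosome 1, where 38 others rose and 38 fell. Vector calls leaned on some chromosomes too, with 155 rises and 24 falls on chromosome 22 and 51 and 131 on chromosome 15. On chromosome 12, 0 of 10 members rose and 9 fell with the vector. Among the 470 genes at or above the level limit there, 122 rose and 195 fell. The part of these chromosome-wide differences in the members' values was not tested.

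With the LSD2/eGFP/Flag vector, 88 of the 143 members were called, 50 higher and 38 lower than with the eGFP/Flag vector. The largest changes were the rise of the creatine carrier SLC6A8 and the falls of SLC43A3, SLC35D2 and SLC16A7. The share called was 61.5%, against 57.0% of all genes and 71.1% of genes at or above the level limit (37.2% higher, 33.9% lower), so it was no higher than among genes of such levels. The arrays of both groups did not overlap for 95 members, or 66.4%, against 74.0% of genes at or above the level limit. Differences past 1 log2 unit were found in 34 members, 23.8%, against 22.4% of genes at or above the level limit. The members' median difference was 0.02, against 0.01 for all genes. The split of calls depended on scaling. It was 44 higher and 50 lower after cyclic loess, 46 and 46 after quantile normalization of the 12 arrays, and 39 and 58 after arrays were set to equal medians, which moved the median of all genes to -0.12.

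These differences stand beside lower levels of the line's markers on the arrays labelled LSD2/eGFP/Flag vector. Whether these arrays hold the same cells was not tested. The mean of the 7 markers ran from 7.21 to 7.37 over those arrays, against 12.82 to 12.87 over eGFP/Flag vector arrays. Not all were low there: VIM had 12.73 (percentile 97.5) and MSN 10.17 (percentile 76.8), against 14.18 and 12.57 in eGFP/Flag vector arrays. The mean of 6 neuronal markers ran from 7.34 to 7.53 over the arrays labelled LSD2/eGFP/Flag vector, against 4.70 to 4.87 over eGFP/Flag vector arrays. Of the 6, 2 lay above percentile 80 on the arrays labelled LSD2/eGFP/Flag vector, NEFM at 11.32 against 4.58 and TUBB2B at 10.77 against 4.28 in eGFP/Flag vector arrays. Of the other 4, NEFL was higher by 3.25, MAP2 fell by 0.79, and STMN2 (0.06) and GAP43 (-0.01) were not called. Fibroblast and endothelial markers averaged 5.41 to 5.79 on the arrays labelled LSD2/eGFP/Flag vector, against 5.01 to 5.21 on eGFP/Flag vector arrays, with 0 of 7 above percentile 80. Within this list LUM had a difference of 1.94, COL3A1 1.54, CDH5 0.26 and VWF -0.21, and PECAM1, COL1A1 and DCN were not called. Blood cell markers averaged 5.26 to 5.32 on the arrays labelled LSD2/eGFP/Flag vector, against 5.31 to 5.39 on eGFP/Flag vector arrays, with 0 of 5 above percentile 80. The markers listed as low or absent in the line averaged 6.23 to 6.29 on the arrays labelled LSD2/eGFP/Flag vector, with 1 of 7 above percentile 80, against 7.03 to 7.11 on eGFP/Flag vector arrays, with 0 of 7. These means hide changes in both directions. GATA3 had a difference of 2.00, ERBB2 0.31, EPCAM -2.58 and KRT19 -5.22, and ESR1, PGR and CDH1 were not called. KRT19 was not low on eGFP/Flag vector arrays, at percentile 73.1, against 11.9 on the arrays labelled LSD2/eGFP/Flag vector. The part of these marker differences in the members' values was not tested.

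SLC6A8 had 11.46, 11.53 and 11.52 in LSD2/eGFP/Flag vector arrays, against 6.89, 6.55 and 7.09 in eGFP/Flag vector arrays. No array of one group came near the other. The difference of 4.66 ± 0.11 (limma adjusted p = 4.49e-13) was a 25.3-fold higher level, and its 2 other probe sets were higher by 3.01 and 3.05. SLC43A3, grouped here with amino acid carriers by family and known as a purine nucleobase transporter, had 5.52, 5.82 and 5.95 in LSD2/eGFP/Flag vector arrays and 11.13, 11.23 and 11.08 in eGFP/Flag vector arrays. Its fall of 5.39 ± 0.12 (limma adjusted p = 2.05e-13) was the largest of any member, and its other probe set was lower by 2.80.

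Other amino acid carriers moved in both directions. SLC7A11 had 9.34, 9.24 and 9.21 in LSD2/eGFP/Flag vector arrays, against 10.91, 11.20 and 10.99 in eGFP/Flag vector arrays. All 3 of its probe sets were lower, the brightest with a difference of -1.77 ± 0.29 (limma adjusted p = 0.00012). SLC38A2 fell by 0.70 ± 0.08 and SLC1A3 fell by 0.38 ± 0.11. SLC7A5, the light chain of a leucine exchanger, was higher by 0.49 ± 0.15, with adjusted p of 0.0714 without eGFP/Flag vector replicate 1, 0.0523 without LSD2/eGFP/Flag vector replicate 2 and 0.0767 with equal medians. Its partner heavy chain SLC3A2 had 0.30 ± 0.17 and the glutamine carrier SLC1A5 had 0.10 ± 0.13 (-0.04 with equal medians), and neither was called. Among the 28 genes of the class, 8 rose, 6 fell and 14 were not called. The share called was below the 71.1% of genes at or above the level limit. With equal medians 7 rose and 10 fell, after cyclic loess 8 and 8, and after quantile normalization 9 and 7.

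Both glucose importers of the cell surface named here fell. SLC2A1 had 7.93, 7.86 and 7.84 in LSD2/eGFP/Flag vector arrays and 9.89, 9.82 and 9.76 in eGFP/Flag vector arrays, a fall of 1.95 ± 0.07 (limma adjusted p = 3.84e-11). SLC2A3, a high-affinity glucose carrier, had 6.03, 6.57 and 6.68 in LSD2/eGFP/Flag vector arrays and 7.96, 7.94 and 8.14 in eGFP/Flag vector arrays. The difference of its brightest probe set was -1.59 ± 0.15 (limma adjusted p = 8.47e-07), and those of its other 2 were -3.72 and -2.80. The lysosomal SLC2A6 went the other way, with 8.86, 8.92 and 9.06 in LSD2/eGFP/Flag vector arrays and 7.49, 6.95 and 7.52 in eGFP/Flag vector arrays. It rose by 1.62 ± 0.15. The class of 12 sugar carriers had 4 rises, 3 falls and 5 genes not called. The share called was below the 71.1% of genes at or above the level limit. Rises and falls were 3 and 5 with equal medians, 3 and 4 after cyclic loess and 3 and 3 after quantile normalization. SLC2A10, below the level limit, had a difference of 1.76 ± 0.31.

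The class of nucleotide sugar carriers, grouped by family, had 3 rises and 7 falls among 15 genes. It holds the acetyl-CoA carrier SLC33A1 and 14 SLC35 genes, not all of known substrate. Of these 14, 2 rose and 7 fell. The 10 called of 15 are near the 71.1% of genes at or above the level limit. Falls outnumbered rises under each scaling, with 2 and 10 after cyclic loess, 2 and 10 with equal medians and 3 and 8 after quantile normalization. Of all genes, 3701 rose and 3123 fell, and with equal medians 2920 rose and 4295 fell. SLC35D2, a carrier of UDP-sugars, had 5.23, 5.26 and 5.57 in LSD2/eGFP/Flag vector arrays, against 9.54 to 10.15 in eGFP/Flag vector arrays. It fell by 4.55 ± 0.14 (limma adjusted p = 8.26e-12), and its other probe set was lower by 2.90. SLC35A3, a UDP-N-acetylglucosamine carrier, fell by 1.51 ± 0.09, and SLC35G2, whose substrate is not established, fell by 2.07 ± 0.08. SLC33A1, the acetyl-CoA carrier of the endoplasmic reticulum, rose by 1.44 ± 0.12 on its brightest probe set, and the other probe set was lower by 0.62.

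**Figure D2:**
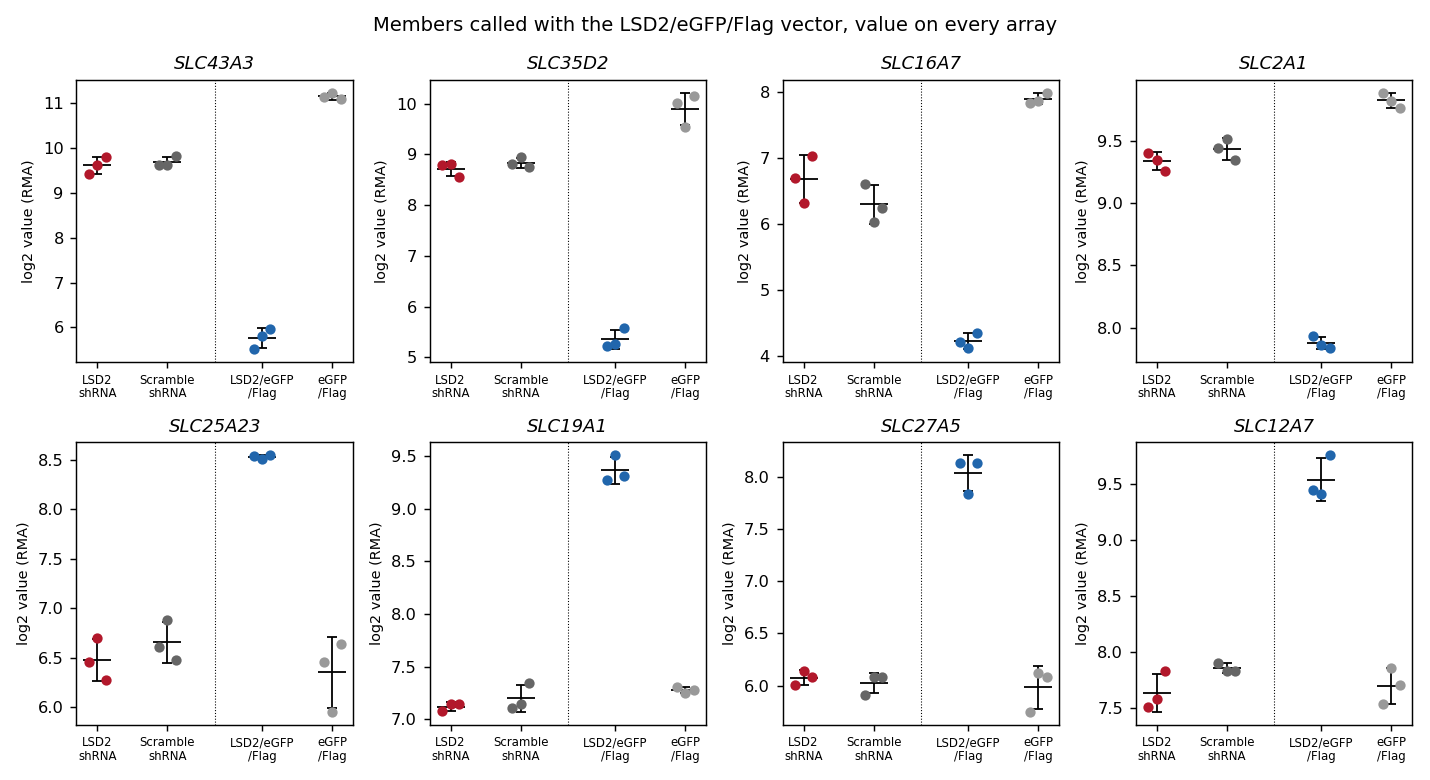
Log2 values (RMA) of 8 members on each of the 12 arrays, in the order LSD2 shRNA, scramble shRNA, LSD2/eGFP/Flag and eGFP/Flag. Points are arrays and bars the mean ± SD (n = 3), and the dotted line separates the shRNA arrays from the vector arrays. SLC43A3 had 5.52 to 5.95 in LSD2/eGFP/Flag vector arrays and 11.08 to 11.23 in eGFP/Flag vector arrays.

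Of the 25 mitochondrial carriers, 11 rose, 7 fell and 7 were not called. The share called was near the 71.1% of genes at or above the level limit. Rises and falls were 9 and 9 with equal medians, 11 and 7 after cyclic loess and 11 and 8 after quantile normalization. SLC25A23, a calcium-regulated carrier of ATP-magnesium and phosphate, had 8.53, 8.51 and 8.54 in LSD2/eGFP/Flag vector arrays, against 6.46, 5.95 and 6.64 in eGFP/Flag vector arrays. It rose by 2.18 ± 0.16 (limma adjusted p = 5.05e-08). SLC25A1, which exports citrate, rose by 1.56 ± 0.17. SLC25A10, which carries succinate and malate, rose by 1.42 ± 0.13, and SLC25A11 rose by 1.10 ± 0.07. SLC25A21 fell by 0.79 ± 0.09. SLC25A37, which brings iron into mitochondria, fell by 1.41 ± 0.09, and its other 2 probe sets were lower by 1.31 and 0.64. SLC25A5, an adenine nucleotide carrier, had -0.11 ± 0.06 and was not called, though with equal medians its difference of -0.25 was (adjusted p = 0.00677).

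Vitamin and nucleoside carriers had 5 rises and 3 falls among 11 genes, or 5 and 5 under each of the 3 other scalings. With 3 not called in the main fit, the share called was near the 71.1% of genes at or above the level limit. SLC19A1, the reduced folate carrier that also takes up methotrexate, had 9.27, 9.51 and 9.31 in LSD2/eGFP/Flag vector arrays and 7.30, 7.25 and 7.28 in eGFP/Flag vector arrays. It rose by 2.09 ± 0.08 (limma adjusted p = 8.16e-11), and its other probe sets were higher by 4.88, 1.13 and 0.28. The nucleoside carriers SLC29A1 and SLC29A2 rose by 0.95 ± 0.10 and 1.01 ± 0.12, and SLC46A3 rose by 0.74 ± 0.11. SLC19A2 fell by 0.49 ± 0.08 and SLC23A2 fell by 0.46 ± 0.07.

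All 6 carriers of carboxylates and lipids were called, 3 higher and 3 lower, beside the 71.1% of genes at or above the level limit. SLC16A7, a high-affinity carrier of pyruvate and lactate, had 4.21, 4.11 and 4.36 in LSD2/eGFP/Flag vector arrays, against 7.84, 7.87 and 7.99 in eGFP/Flag vector arrays. It fell by 3.67 ± 0.17 (limma adjusted p = 3.45e-10) on its brightest probe set and its other was lower by 0.96. SLC27A5, a bile acid and fatty acid CoA ligase of liver, had 8.13, 7.83 and 8.13 in LSD2/eGFP/Flag vector arrays and 5.75, 6.12 and 6.08 in eGFP/Flag vector arrays. It rose by 2.05 ± 0.11, and the related SLC27A2 rose by 0.99 ± 0.17. SLC16A7 and SLC27A2 sat just inside the level limit.

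Among carriers of ions and pH, 4 of 13 rose and 2 fell, and 7 were not called. The share called was below the 71.1% of genes at or above the level limit. Rises and falls reversed to 2 and 4 after cyclic loess, 1 and 6 with equal medians and 2 and 4 after quantile normalization. SLC12A7, a potassium and chloride cotransporter, had 9.44, 9.41 and 9.75 in LSD2/eGFP/Flag vector arrays and 7.53, 7.86 and 7.70 in eGFP/Flag vector arrays, a rise of 1.84 ± 0.11 (limma adjusted p = 8.43e-09). SLC4A7 fell by 0.71 ± 0.09, and SLC9D1, a putative cation and proton exchanger, fell by 1.16 ± 0.09. SLC12A2, the sodium, potassium and chloride cotransporter, had 0.40 ± 0.13. Its adjusted p was 0.0819 without eGFP/Flag vector replicate 3 (0.26) and 0.0812 without LSD2/eGFP/Flag vector replicate 2 (0.25). It was also lost under the 3 other scalings, with differences of 0.24 to 0.27 and adjusted p from 0.0978 to 0.137. The phosphate importer SLC20A1 had 11.97, 12.09 and 11.95 in LSD2/eGFP/Flag vector arrays and 13.45, 13.56 and 13.37 in eGFP/Flag vector arrays, a fall of 1.46 ± 0.08.

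Metal carriers had 6 rises and 2 falls among 16 genes, with 8 not called. The share called was below the 71.1% of genes at or above the level limit. Rises and falls were 4 and 3 with equal medians, 5 and 2 after cyclic loess and 5 and 2 after quantile normalization. SLC39A4, a zinc importer of gut epithelium, rose by 1.15 ± 0.09, and SLC41A3, linked to magnesium, rose by 0.53 ± 0.12. SLC39A9, a zinc carrier, fell by 1.18 ± 0.09 on its brightest probe set, while its other 2 were lower by 0.15 and 0.06. SLC39A6, an oestrogen-responsive zinc importer, had 0.21 ± 0.08, which lost its call without any 1 of 5 arrays, with adjusted p from 0.0684 to 0.12. Those arrays were eGFP/Flag vector replicates 2 and 3 and LSD2/eGFP/Flag vector replicates 1, 2 and 3. With equal medians its difference was 0.07 (adjusted p = 0.443), and the mean of its probe sets gave 0.16 (adjusted p = 0.117). The zinc exporter SLC30A1 had 0.19 ± 0.16 and was not called.

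The carriers of organic ions and vesicle contents had 4 rises and 2 falls among 8 genes, with 2 not called. The share called was near the 71.1% of genes at or above the level limit. Rises and falls were 3 and 3 with equal medians, 3 and 3 after cyclic loess and 3 and 2 after quantile normalization. SLC47A1 had 9.05, 8.48 and 9.25 in LSD2/eGFP/Flag vector arrays and 7.81, 7.62 and 7.72 in eGFP/Flag vector arrays, a rise of 1.21 ± 0.16 (limma adjusted p = 1.32e-05). SLC22A4 fell by 1.17 ± 0.16. SLC17A9, which loads ATP into vesicles, fell by 1.12 ± 0.08. SLC17A5 was higher by 0.40 ± 0.14, with adjusted p from 0.0633 to 0.128 without replicate 1 or 2 of the eGFP/Flag vector or replicate 1 or 3 of the LSD2/eGFP/Flag vector. It also lost its call under the 3 other scalings, at 0.28 (adjusted p = 0.106) after cyclic loess, 0.26 (0.0797) with equal medians and 0.28 (0.113) after quantile normalization. Outside these classes, SLC68A1, an orphan carrier, rose by 2.24 ± 0.13, and SLC61A1, a molybdate carrier, fell by 0.47 ± 0.08.

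**Figure D3:**
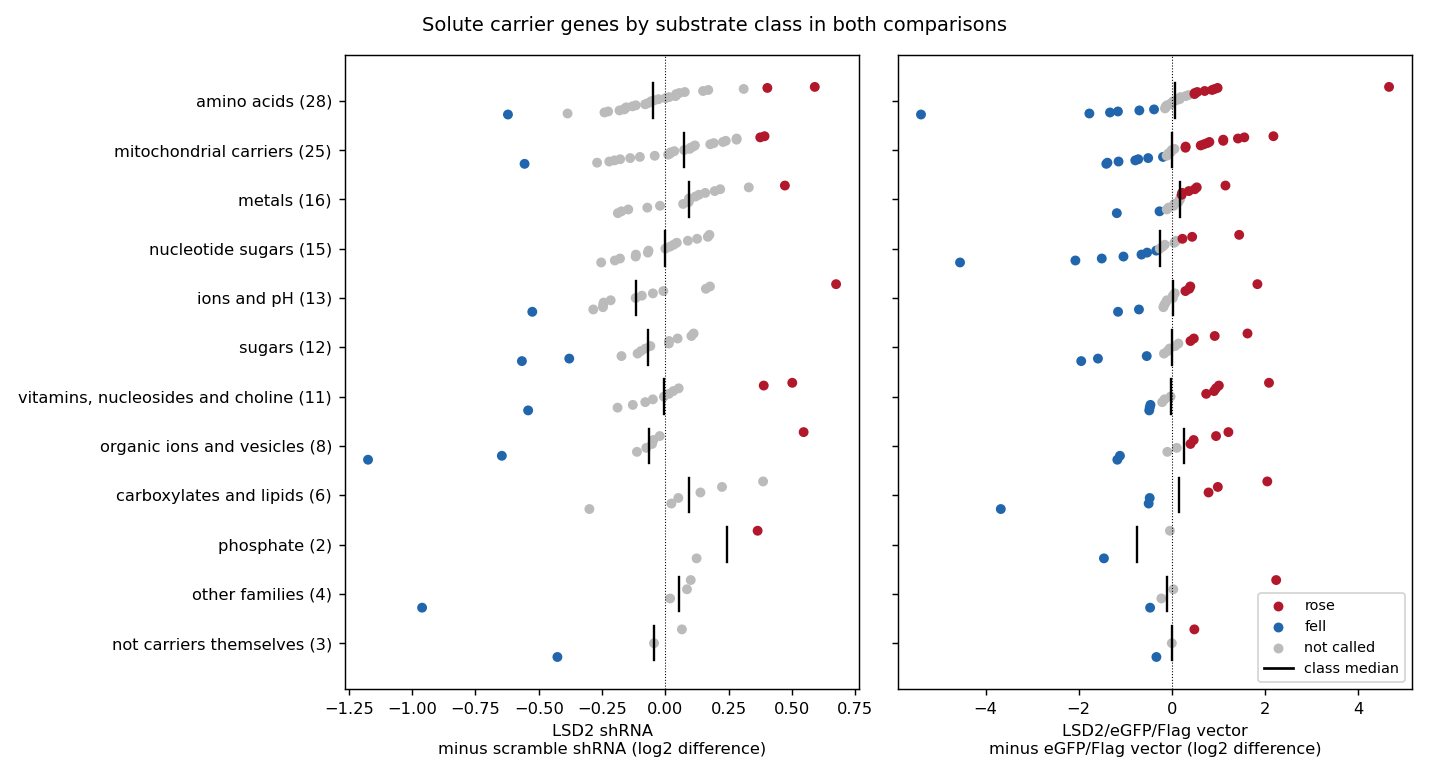
Log2 differences of the 143 members by substrate class (number of genes in brackets), for LSD2 shRNA minus scramble shRNA on the left and the LSD2/eGFP/Flag vector minus the eGFP/Flag vector on the right. Each point is a gene, coloured by its call, and black bars are class medians. The horizontal scales differ, with members from -1.17 to 0.67 on the left and from -5.39 to 4.66 on the right.

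In both comparisons together, 16 members were called, of the 20 called with the shRNA and of the 88 (18.2%) called with the vector. Of these, 13 had opposite directions and 3 the same. Among genes at or above the level limit, 921 were called in both, 569 in opposite directions and 352 in the same. Whether members differ from other genes in these shares or directions was not tested. SLC47A1, SLC6A8, SLC2A6, SLC25A11, SLC46A3 and SLC2A4RG fell with the LSD2 shRNA and rose with the LSD2/eGFP/Flag vector, where SLC2A4RG had 0.48 ± 0.11. SLC4A7, SLC19A2, SLC38A2, SLC23A2, SLC1A3, SLC25A21 and SLC20A1 rose with the LSD2 shRNA and fell with the LSD2/eGFP/Flag vector. SLC22A4 and SLC37A1 fell in both, SLC37A1 by 0.54 ± 0.10 with the vector, and SLC17A5 was called higher in both, with the limits given for each. The 4 members called in the shRNA comparison and not in the vector comparison had vector differences of 0.03 ± 0.26 for SLC67A1, -0.11 ± 0.10 for SLC26A2, 0.16 ± 0.10 for SLC39A8 and -0.08 ± 0.08 for SLC25A38. Of these, SLC26A2 was called with equal medians (-0.24, adjusted p = 0.0357) and SLC39A8 on leaving out LSD2/eGFP/Flag vector replicate 2 (0.26, adjusted p = 0.0226). Across the 143 genes, which are not independent, Pearson's r between the differences was -0.22, against -0.19 for genes at or above the level limit. Spearman's rho was -0.221 for the members and -0.106 for genes at or above the level limit.

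**Figure D4:**
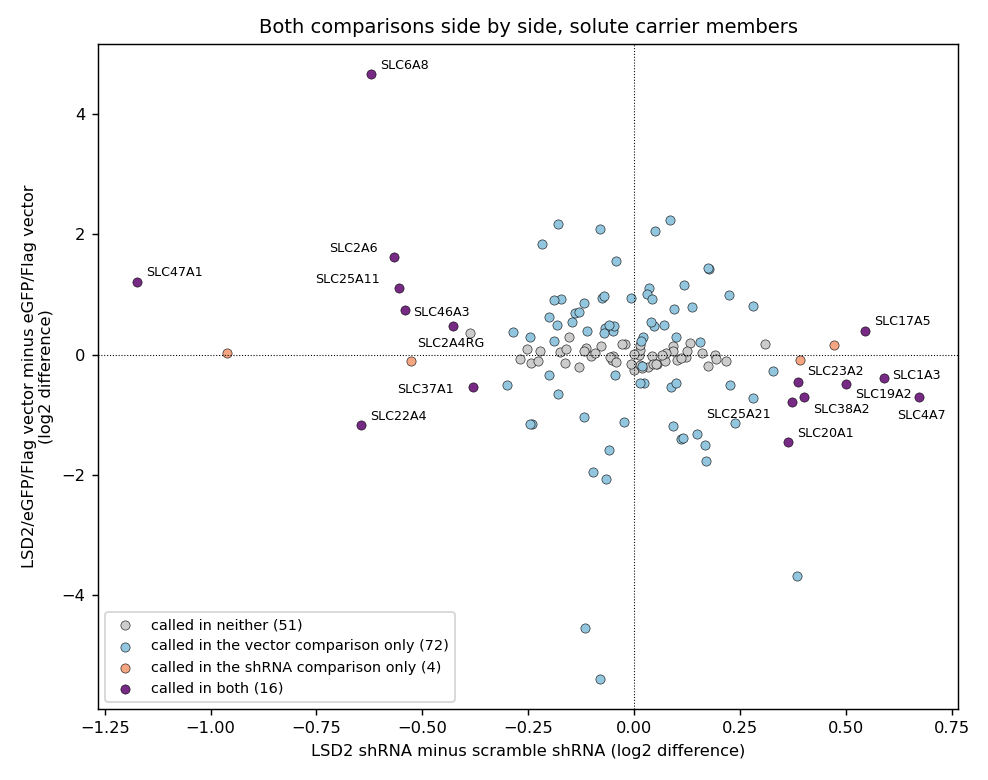
Log2 difference LSD2 shRNA minus scramble shRNA (horizontal) against the LSD2/eGFP/Flag vector minus the eGFP/Flag vector (vertical) for the 143 members, coloured by the comparisons in which each was called. The 16 members called in both are named, and 13 of them lie in the quadrants of opposite sign.

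Related genes outside the SLC nomenclature were listed by function, and their counts stand beside the 57.0% of all genes called with the vector and the 10.5% called with the shRNA. Of 14 measured carriers of other families, 7 rose and 4 fell with the LSD2/eGFP/Flag vector, led by organic anion transporters. SLCO1B3 had 4.17, 4.29 and 4.30 in LSD2/eGFP/Flag vector arrays, against 10.51, 10.27 and 10.32 in eGFP/Flag vector arrays, a fall of 6.11 ± 0.09. SLCO3A1 fell by 3.38 ± 0.14 and SLCO4C1 fell by 2.06 ± 0.33. With the LSD2 shRNA, SLCO1B3 rose by 0.57 ± 0.09, and the lysosomal cystine exporter CTNS fell by 0.81 ± 0.10, the only calls of that list.

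Enzymes that use carried amino acids and creatine had 6 rises and 3 falls among 11 with the vector. The creatine kinase CKB, whose substrate SLC6A8 imports, had 13.10, 13.03 and 13.24 in LSD2/eGFP/Flag vector arrays, against 7.27, 7.46 and 7.96 in eGFP/Flag vector arrays, a rise of 5.56 ± 0.20. CBS, which makes cystathionine from homocysteine, rose by 6.31 ± 0.20, and ASS1, of arginine synthesis, rose by 3.13 ± 0.19. ASS1 had a difference of -0.81 ± 0.19 with the LSD2 shRNA, with adjusted p from 0.0589 to 0.0652 on leaving out scramble array 1 or 3, or array 2 of the LSD2 shRNA.

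Of 13 genes for metal binding and iron uptake, 2 rose and 9 fell with the vector, including the metallothioneins MT1E, with -1.94 ± 0.10, and MT2A, with -1.46 ± 0.10, while the iron reductase STEAP3 rose by 1.61 ± 0.08. Of 10 ion pumps and their kinases, 3 rose and 6 fell, with -1.82 ± 0.07 for the sodium pump subunit ATP1B1 and -1.82 ± 0.12 for the kinase SGK1. The calcium pump ATP2B4 fell by 0.80 ± 0.14. Of 5 genes of the carbonic anhydrase family, 4 rose and 1 fell, with CA8 at 2.67 ± 0.16, CA11 at 1.80 ± 0.09 and CA2 at 1.62 ± 0.13. With the LSD2 shRNA these 3 lists had 0 calls in limma's fit. MT1E, with -0.32, was closest (adjusted p = 0.0561). It was called under 6 alternatives, at adjusted p from 0.0155 to 0.0481, among them leaving out replicate 3 of the LSD2 shRNA. MT2A (-0.24) and ATP1B1 were called with array weights, at adjusted p of 0.0315 and 0.0328. Of 6 chaperones and trafficking factors, 1 rose and 2 fell with the vector: BSG had 0.29 ± 0.08 (adjusted p = 0.144 with equal medians), PIKFYVE fell by 1.16 ± 0.09 and NEDD4L fell by 1.04 ± 0.09. TXNIP, which removes glucose carriers from the surface, had 0.60 ± 0.13 with the LSD2 shRNA, with adjusted p of 0.0547 when scramble array 1 was left out and 0.0504 on leaving out array 3 of the LSD2 shRNA.

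Promoters are shown for 4 members with large changes, to set the sequences of SLC12A7 and SLC20A1, which hold the motif CACGTG, beside those of SLC6A8 and SLC35D2, which do not. RefSeq windows of 300 bases (250 before to 50 after the gene start, GRCh38.p14) were found for 118 of the 143 members. Each is printed 5′ to 3′ on the gene's strand, with CACGTG, the E-box that several transcription factors recognise, in capitals. The windows are chrX:153687676-153687975 on the plus strand for SLC6A8, chr9:96383662-96383961 on the minus strand for SLC35D2, chr5:1112014-1112313 on the minus strand for SLC12A7 and chr2:112645689-112645988 on the plus strand for SLC20A1.
SLC6A8: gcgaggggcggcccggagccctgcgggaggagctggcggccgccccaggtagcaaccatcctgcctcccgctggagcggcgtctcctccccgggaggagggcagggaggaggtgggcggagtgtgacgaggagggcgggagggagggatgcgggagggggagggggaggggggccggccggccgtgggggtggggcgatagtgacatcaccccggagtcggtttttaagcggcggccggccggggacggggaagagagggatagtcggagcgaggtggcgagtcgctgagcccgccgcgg
SLC35D2: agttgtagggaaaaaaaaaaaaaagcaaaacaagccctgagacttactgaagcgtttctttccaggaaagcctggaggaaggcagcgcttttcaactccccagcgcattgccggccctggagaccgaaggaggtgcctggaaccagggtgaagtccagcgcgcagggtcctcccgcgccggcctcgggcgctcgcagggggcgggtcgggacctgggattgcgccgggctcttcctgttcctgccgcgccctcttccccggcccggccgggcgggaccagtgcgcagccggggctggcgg
SLC12A7: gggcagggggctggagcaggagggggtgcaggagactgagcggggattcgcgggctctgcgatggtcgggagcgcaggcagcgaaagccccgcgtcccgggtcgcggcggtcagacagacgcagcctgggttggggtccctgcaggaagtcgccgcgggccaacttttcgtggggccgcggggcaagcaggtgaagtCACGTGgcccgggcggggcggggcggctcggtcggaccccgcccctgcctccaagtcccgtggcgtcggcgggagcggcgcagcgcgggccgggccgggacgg
SLC20A1: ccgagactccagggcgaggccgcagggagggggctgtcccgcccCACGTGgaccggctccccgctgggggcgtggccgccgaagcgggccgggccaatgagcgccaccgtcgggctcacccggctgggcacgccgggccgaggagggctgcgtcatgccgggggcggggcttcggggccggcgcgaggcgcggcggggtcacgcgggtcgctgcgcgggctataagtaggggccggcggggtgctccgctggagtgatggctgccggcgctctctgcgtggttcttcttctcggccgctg
CACGTG, which reads the same on both strands, was in 14.8% of 176 member windows and 7.3% of all 35116 windows. Its share was 19.4% in the windows of members that rose with the LSD2/eGFP/Flag vector, 13.6% of those that fell and 10.8% of those not called. Member windows held a median of 26 CG dinucleotides, against 14 in all windows, and the part of this in the share, since the motif itself contains CG, was not tested. On either strand, TGATGNAA was in 6.2% of member windows against 3.6% of all, TGANTCA in 6.2% against 7.7%, and TGCNCNC in 61.4% against 55.9%. TGCNCNC was in 68.7% of windows of members that rose with the LSD2/eGFP/Flag vector, 40.9% of those that fell and 67.7% of those not called. For TGANTCA these shares were 6.0%, 6.8% and 6.2%, and for TGATGNAA 4.5%, 6.8% and 7.7%. A match in these letters is a description and not a binding site.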

How the data were processed

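The authors deposited log2 values of 22277 probe sets on 12 Affymetrix arrays, and the submitters' processing notes name RMA, with no version. Differing medians and minima led to the shRNA and vector arrays being treated as normalized separately. Probe sets naming 1 gene in the platform annotation (19064) were matched to RefSeq (19052 matched), and the brightest was taken per gene, for 57 members among several. Differences were fitted with limma 3.58.1 in R 4.3.3 on all 12 arrays with a mean per group, eBayes and Benjamini-Hochberg adjustment over 11963 genes, two-sided. RMA values carry no detection calls, and the number of arrays limits precision. Values are log2 differences ± SE. Each SE and p-value uses 1 spread per gene pooled over all 4 groups, so a gene's SE is the same in both comparisons. It therefore includes the spread of arrays outside the comparison. Arrays were simulated with 200 genes changed by known amounts and independent normal noise. On them the shRNA fit recovered 65.7% of changes of 0.5 log2 units and 95.5% of 1 unit over 11963 genes, with 7.94% of calls false. For the vector fit these were 64.2%, 95.5% and 4.95%. In the data 1260 genes were called with the shRNA and 6824 with the vector, so these rates describe the simulated setting only.

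The members and lists were chosen with earlier results of these data known, and the class of 3 genes that are not carriers (SLC2A4RG, SLC4A1AP and SLC67A1-AS) was set apart after values were seen. Named were, per comparison, the 10 largest rises and falls whose arrays did not overlap, up to 3 called members per class, 12 called in both comparisons, 19 fixed names (14 of them members), the genes at the level limit and up to 3 called genes per related list. Alternatives were other scalings, probe set rules, filters, variance models and thresholds, the replicate block and leaving out each array.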

Additional observations from a re-analysis of the deposited data

How the results depend on the processing

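For the shRNA comparison the 20 calls became 32 with array weights (16 higher, 16 lower) and 12 at adjusted p under 0.01 (5 lower), and leaving out 1 array gave 14 to 20 (7 to 12 higher, 6 to 9 lower). The cause was not tested. Its median moved to 0.0175 after cyclic loess and 0.0384 with equal medians, and ran from -0.0189 to 0.0088 without 1 array. For the vector comparison equal medians gave 58 lower calls, and leaving out 1 array gave 83 to 86 calls (46 to 48 higher, 37 to 39 lower). Its median was -0.0711 after cyclic loess, -0.1145 with equal medians and -0.0423 after quantile normalization, and ran from 0.0137 to 0.0467 without 1 array. Solute carriers of any level had 24 shRNA and 117 vector calls. Of the named members, 10 of 20 kept the shRNA call and 42 of 46 the vector call under every alternative run, and no called difference of a named gene changed sign. Of the differences that were not called, 18 of 51 in the shRNA comparison and 4 of 10 in the vector comparison changed sign under some alternative.

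Same-numbered arrays had correlated deviations of 0.02, 0.51 and 0.45 in the shRNA comparison and -0.14, 0.17 and 0.18 in the vector comparison. Arrays with different numbers had -0.48 to 0.07 in the shRNA comparison and -0.24 to 0.10 in the vector comparison. Replicates 2 and 3 of the shRNA arrays thus varied together by number. The labels name no pairs, and the main fit was unpaired. A replicate block, with 1 effect per number shared by all 12 arrays, left 17 of the 20 shRNA calls and 87 of the 88 vector calls. A block within the shRNA arrays alone was not run. With the block, adjusted p was 0.0524 for SLC2A6, 0.0555 for SLC17A5 and 0.0623 for SLC67A1 (shRNA) and 0.0565 for SLC39A6 (vector). Fitted on the compared groups alone, it was 0.0517 for SLC67A1, 0.081 for SLC37A1 and 0.0597 for SLC17A5 (shRNA) and 0.0606 for SLC12A2 (vector).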
